A study of Mus musculus with 4 samples.

Results

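A set of 10 genes was followed in tumour-associated macrophages sorted from mouse liver tumours. Their products carry activating or inhibitory signals between myeloid cells and T cells. The genes were chosen by symbol, as a list of checkpoint ligands and costimulators. All 10 were found among the 24784 genes of the deposited table. Messenger RNA was profiled in 4 libraries: 2 labelled OXCT1mKO, a genotype that names Oxct1, the mitochondrial enzyme that activates the ketone body acetoacetate, and 2 labelled control. In both groups the mice were male, 6 to 8 weeks old and treated with Hepa 1-6, a mouse hepatoma line, by a route the labels abbreviate as i.pv. The labels name no genetic background, no Cre driver or promoter, and no number of animals per library, and the antibodies of the sort are not stated.

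T cells need a second signal beside antigen, and the B7 proteins CD80 and CD86 on antigen-presenting cells supply it through CD28 or withhold it through CTLA-4. PD-L1 (Cd274) and PD-L2 (Pdcd1lg2) bind the inhibitory receptor PD-1, and interferon gamma is a known inducer of PD-L1. HVEM (Tnfrsf14), PVR, VISTA (Vsir), galectin-9 (Lgals9), TIM-3 (Havcr2) and B7-H3 (Cd276) add further, mostly inhibitory, contacts between macrophages and lymphocytes.

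The values were RPKM, read numbers divided by gene length and library size. Low values placed the depths at about 21500000 and 20300000 reads in OXCT1mKO 1 and 2 and at about 22200000 and 22800000 reads in control 1 and 2. Oxct1 averaged 15.1 ± 0.483 RPKM in OXCT1mKO and 19.8 ± 0.685 RPKM in control (SD, n = 2 each), with a log2 fold change of -0.37 ± 0.09 (SE) and a limma adjusted p of 0.0346. Whole-gene RPKM cannot tell whether an exon was removed. The call was lost without OXCT1mKO 1 (limma adjusted p 0.225), OXCT1mKO 2 (0.162) or control 2 (0.0559), without the filter on low genes (0.0504), with the replicate block (0.0577) and with the libraries scaled to equal sums with globin (0.171) or without it (0.0627). The 12 macrophage markers were detected in every library, but Lyz2, the lysozyme of myeloid cells, was 8.76 and 6.52 RPKM in OXCT1mKO against 688 and 744 RPKM in control. Control 1 stood apart by its globin transcripts, which made up 8.81% of its RPKM sum, against 0.327% in control 2 and 0.137% and 0.132% in OXCT1mKO. The pan-leukocyte gene Ptprc, which encodes CD45, was 62.0 and 62.4 RPKM in OXCT1mKO and 27.7 and 28.0 RPKM in control (log2 fold change 1.13 ± 0.08, limma adjusted p 0.0127, and 0.104 and 0.0718 without OXCT1mKO 1 and OXCT1mKO 2). It gives the scale against which the 10 genes are also set below.

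The 10 genes lie on 7 chromosomes of build GRCm38. Cd274 (chromosome 19, 29367455 to 29388095) and Pdcd1lg2 (29410919 to 29471161) are adjacent on the plus strand, 22.8 kb apart. Cd80 and Cd86 are both on chromosome 16, and Lgals9 and Havcr2 both on chromosome 11, in each case far apart. The windows from 250 bases before to 50 bases after the annotated start were available from RefSeq (GRCm38.p6) for 8 of the 10 genes, the exceptions being Cd86 and Pvr. Both strands were searched for the core of the interferon-stimulated response element (GAAA, any 2 bases, GAAA). They were also searched for TGANTCA, a loose form of the AP-1 element that allows any middle base. Of all 32851 windows, 3.44% held the interferon element core and 7.81% held the loose AP-1 pattern. Lgals9 held 2 interferon element cores, 1 starting 55 bases before the start and 1 at base 16 after it, and Tnfrsf14 held 1 that began 64 bases before it. Havcr2 and Cd80 held a match to the loose AP-1 pattern each, TGATTCA in both, 200 and 42 bases before the start. Cd274, Pdcd1lg2, Vsir and Cd276 matched neither pattern. For Tnfrsf14, Cd80 and Cd276 the 5′ end of the GENCODE gene (154928563, 38455561 and 58555437) lies outside the window. The RefSeq start used for these genes lies further inside the GENCODE gene. The windows are shown for Tnfrsf14 and Lgals9, which share the interferon element core but differ below, for Havcr2, the gene with the largest fold change of the 10, and for Cd274, which held no match. Capitals mark the matched bases, and each line reads 5′ to 3′ on the strand of the gene.
Tnfrsf14 (minus strand, chr4:154928028-154928327): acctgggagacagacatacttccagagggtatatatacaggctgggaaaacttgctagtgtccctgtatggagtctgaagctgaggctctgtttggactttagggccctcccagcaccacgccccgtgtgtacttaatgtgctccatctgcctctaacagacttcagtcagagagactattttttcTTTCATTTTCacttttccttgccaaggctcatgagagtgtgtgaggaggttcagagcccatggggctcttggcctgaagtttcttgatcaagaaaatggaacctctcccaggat
Lgals9 (minus strand, chr11:78984875-78985174): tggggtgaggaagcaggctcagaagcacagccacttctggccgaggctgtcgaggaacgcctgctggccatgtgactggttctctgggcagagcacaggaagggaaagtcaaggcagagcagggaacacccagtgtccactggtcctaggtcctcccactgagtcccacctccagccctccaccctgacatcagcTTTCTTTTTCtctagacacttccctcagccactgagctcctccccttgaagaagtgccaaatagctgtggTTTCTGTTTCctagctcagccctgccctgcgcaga
Havcr2 (plus strand, chr11:46454681-46454980): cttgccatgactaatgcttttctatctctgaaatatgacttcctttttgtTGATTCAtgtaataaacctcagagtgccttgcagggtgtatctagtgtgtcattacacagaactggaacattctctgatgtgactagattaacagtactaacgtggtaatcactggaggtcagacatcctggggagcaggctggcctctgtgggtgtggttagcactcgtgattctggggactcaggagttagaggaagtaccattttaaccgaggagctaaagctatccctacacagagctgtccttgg
Cd274 (plus strand, chr19:29367188-29367487): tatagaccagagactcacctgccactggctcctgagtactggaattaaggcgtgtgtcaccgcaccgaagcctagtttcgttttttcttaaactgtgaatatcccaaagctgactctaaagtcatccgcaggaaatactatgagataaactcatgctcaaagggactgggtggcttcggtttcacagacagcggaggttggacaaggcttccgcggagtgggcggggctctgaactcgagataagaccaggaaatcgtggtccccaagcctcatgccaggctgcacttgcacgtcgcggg

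Messages for most of these genes were higher in OXCT1mKO, by 1.79 times for Vsir to 2.87 times for Havcr2 on the scale of log2(RPKM + 1). All 10 genes passed the filter of a mean of 1 RPKM, and 7 rose: Havcr2, Tnfrsf14, Cd86, Cd80, Cd274, Pdcd1lg2 and Vsir. Over all 12523 tested genes 16.4% were called higher and 16.4% lower by the same rule, a limma adjusted p under 0.05. None of the 10 was called lower, and 0 of them lower at an unadjusted p under 0.05. Both OXCT1mKO libraries lay above both controls for 8 of the 10 genes, against 37.6% of all tested genes, and below both controls for 1, against 37.0%. The median log2 fold change was 1.01 over the 10 genes and 0.00 over all tested genes. The 10 genes were chosen with earlier results of these data known, so these contrasts are a description. With OXCT1mKO 1 or OXCT1mKO 2 left out, limma called none of the 10 genes. The 7 genes then had log2 fold changes between 0.81 and 1.64, with limma adjusted p between 0.0718 and 0.191. In these fits limma called 1 and 10 genes of the whole table, so the gene calls given below for other genes rest on both OXCT1mKO libraries too, except that Lyz2 was called in both fits, and Vsig4, Cd5l and Folr2, genes of Kupffer cells, without OXCT1mKO 2. All 7 were called without control 1 and without control 2, with adjusted p between 0.0171 and 0.0486. Fewer cells of a type and less RNA per cell cannot be told apart in these bulk libraries.

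**Figure D1:**
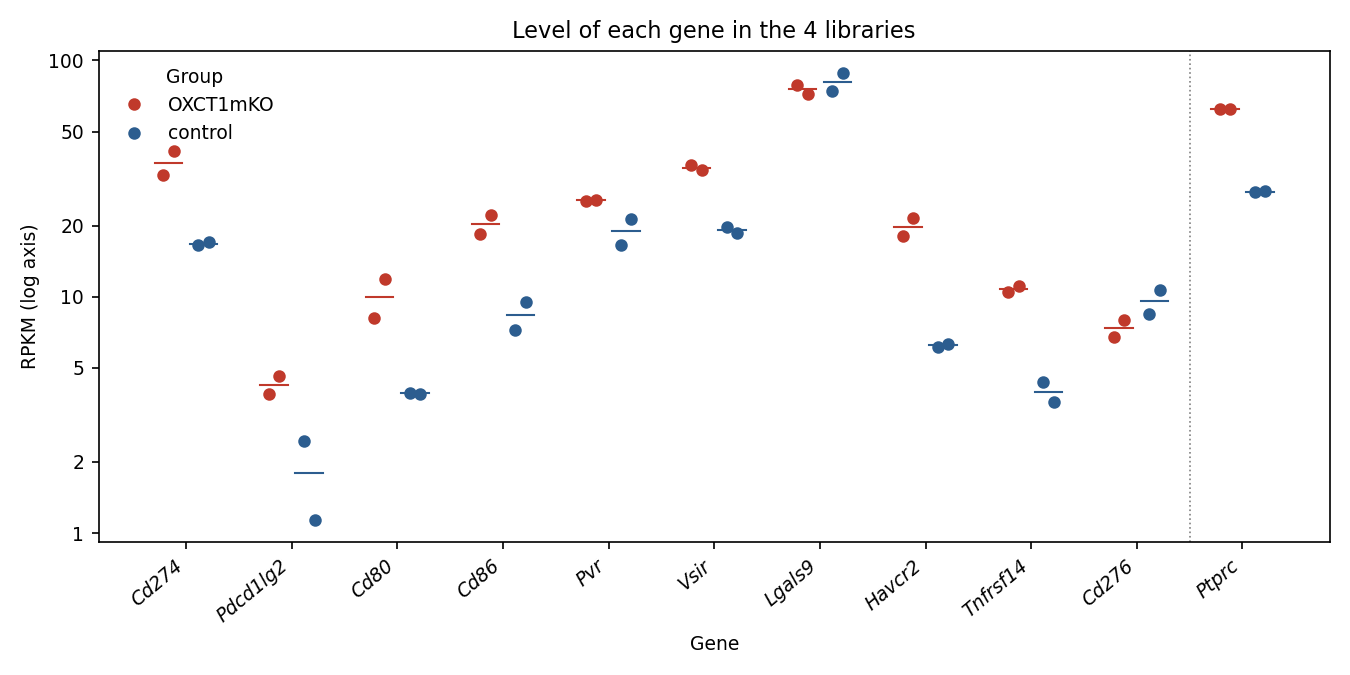
RPKM on a log axis for each of the 10 genes and, right of the dotted line, Ptprc, with 1 point per library and a bar at the mean of each group. Lgals9 is the highest and Pdcd1lg2 the lowest of the 10 genes in all 4 libraries, and the groups overlap for Lgals9 alone.

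The ligands of PD-1 were both higher in OXCT1mKO. Cd274 was 32.7 and 41.2 RPKM in OXCT1mKO 1 and 2, against 16.6 and 17.0 RPKM in control 1 and 2. The controls were nearly equal, and both OXCT1mKO libraries were well above them. The means were 37.0 ± 6.00 and 16.8 ± 0.273 RPKM (SD, n = 2 each), a log2 fold change of 1.08 ± 0.13 (95% interval 0.74 to 1.43, limma adjusted p 0.0127). The strand setting of the counting is not given. An antisense gene, AC119228.1, shares 511 of the 3622 exon bases of Cd274, and reads within those bases cannot be told apart. Pdcd1lg2 was the scarcest of the 10, at 3.88 and 4.61 RPKM in OXCT1mKO and 2.46 and 1.14 RPKM in control. The control values differed from each other about as much as control 1 differed from OXCT1mKO 1, though the groups did not overlap. Its log2 fold change was 0.94 ± 0.26 (95% interval 0.28 to 1.61) with a limma adjusted p of 0.0474, or 1.29 without control 1 and 0.60 without control 2. About 51 reads lay behind the value in control 2 and about 183 behind that in OXCT1mKO 2, if the gene model is the GENCODE exon length. The call of Pdcd1lg2 was lost with a pseudocount of 0.1 (limma adjusted p 0.057), without the filter on low genes (0.108) and without the variance trend (0.05 after rounding). Cd274 stood above Pdcd1lg2 by 8.43 and 8.94 times in OXCT1mKO and by 6.76 and 14.9 times in control, so the ratio of the pair overlapped between the groups.

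Genes next to this pair on chromosome 19 did not all move with it. Jak2, the kinase gene upstream of Cd274, rose (24.3 and 27.4 RPKM in OXCT1mKO, 11.9 and 17.9 RPKM in control, log2 fold change 0.78, limma adjusted p 0.0428). Ric1, the first gene of this list beyond Pdcd1lg2, which encodes a trafficking factor, rose too (6.19 and 7.11 RPKM in OXCT1mKO, 4.06 and 4.36 RPKM in control, log2 fold change 0.55, limma adjusted p 0.0269). Plgrkt, a plasminogen receptor gene that starts beside Cd274 on the other strand, was 24.7 and 21.6 RPKM in OXCT1mKO and 26.9 and 23.4 RPKM in control (-0.12, limma adjusted p 0.474). Without control 1 the fold change of Jak2 was 0.50 and Ric1 was not called (limma adjusted p 0.0594), and without the filter on low genes neither was called (0.0928 and 0.0623). The Jak2 call was also lost without the variance trend (0.0504). Insl6 (-0.02) and Ermp1 (0.20) did not pass either, and Mlana and Rln1 were under the filter, at no more than 0.207 RPKM in any library.

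The ligands of CD28 and CTLA-4 were higher as well. Cd80 was 8.13 and 11.9 RPKM in OXCT1mKO, against 3.92 and 3.89 RPKM in control. Its spread lay in the OXCT1mKO pair, of which the lower was still well above both controls. The log2 fold change was 1.14 ± 0.19 (95% interval 0.66 to 1.63, limma adjusted p 0.0166). Cd86 was 18.5 and 22.2 RPKM in OXCT1mKO, against 7.23 and 9.49 RPKM in control, with no overlap. Its log2 fold change was 1.20 ± 0.16 (95% interval 0.78 to 1.62, limma adjusted p 0.0131). Cd86 exceeded Cd80 by 2.28 and 1.87 times in OXCT1mKO and by 1.84 and 2.44 times in control, so the balance between the pair overlapped between the groups.

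Havcr2 and Tnfrsf14 had the largest fold changes of the 10 genes. Havcr2, the inhibitory receptor TIM-3 that T cells, macrophages and dendritic cells carry, was 18.1 and 21.5 RPKM in OXCT1mKO, against 6.10 and 6.34 RPKM in control. Both OXCT1mKO values lay far above the closely matched controls. The log2 fold change was 1.52 ± 0.12 (95% interval 1.22 to 1.83, limma adjusted p 0.0127). Tnfrsf14, whose product HVEM engages BTLA and CD160 on lymphocytes, was 10.5 and 11.1 RPKM in OXCT1mKO and 4.35 and 3.59 RPKM in control. Its log2 fold change was 1.25 ± 0.12 (95% interval 0.94 to 1.56, limma adjusted p 0.0127). Lgals9, a galectin known as a ligand of TIM-3, was the most abundant of the 10 per length and did not follow its receptor. It was 78.7 and 72.4 RPKM in OXCT1mKO and 74.4 and 88.4 RPKM in control, and the groups overlapped. The log2 fold change was -0.10 ± 0.12 (95% interval -0.41 to 0.21, limma adjusted p 0.534), and it turned to 0.02 without control 2 and 0.06 with equal RPKM sums.

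Of the remaining B7 and nectin-family genes, Vsir rose and Pvr and Cd276 did not pass. Vsir, which encodes the myeloid checkpoint VISTA, was 36.1 and 34.3 RPKM in OXCT1mKO, against 19.7 and 18.7 RPKM in control. Libraries of a group were close, and the log2 fold change was 0.84 ± 0.09 (95% interval 0.62 to 1.07, limma adjusted p 0.0127). Pvr, the poliovirus receptor that binds TIGIT, CD96 and CD226, was 25.5 and 25.7 RPKM in OXCT1mKO and 16.6 and 21.3 RPKM in control. Its groups did not overlap, but the log2 fold change of 0.42 ± 0.14 (95% interval 0.07 to 0.78) had a limma adjusted p of 0.072. That p was 0.0198 without control 2 (log2 fold change 0.59), 0.0497 with equal RPKM sums and 0.0353 with equal sums that leave globin out, and the fold change was 0.25 without control 1. Cd276, B7-H3, a gene that many tumours also express, was 6.78 and 7.95 RPKM in OXCT1mKO and 8.44 and 10.7 RPKM in control. Both OXCT1mKO values were the lower ones, by a log2 fold change of -0.33 ± 0.15 (95% interval -0.72 to 0.05, limma adjusted p 0.143) that was -0.18 without control 2. Gm10657, a gene on the opposite strand whose GENCODE type is TEC, shares 416 of the 3658 exon bases of Cd276. Reads within those bases cannot be told apart either. In the order of levels, Cd276 was the fifth of the 10 genes in both controls and the ninth in both OXCT1mKO libraries.

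Set against Ptprc, most of the rises were no longer seen. Per unit of Ptprc, Cd274 was 0.528 and 0.661 in OXCT1mKO and 0.600 and 0.607 in control, a ratio of RPKM values within each library. With each library scaled to the same Ptprc level, the log2 fold change of Cd274 was -0.03 (95% interval -0.37 to 0.31), that of Cd86 0.12 (-0.30 to 0.54), that of Cd80 0.15 (-0.32 to 0.62) and that of Pdcd1lg2 0.11 (-0.66 to 0.88). Those intervals include 0 but are wide enough to hold modest changes in either direction. Havcr2 was the single gene of the 10 called higher on this scale, at 0.292 and 0.345 per unit of Ptprc in OXCT1mKO against 0.220 and 0.226 in control (log2 fold change 0.47 ± 0.11, limma adjusted p 0.014). Tnfrsf14 kept non-overlapping ratios, 0.169 and 0.178 in OXCT1mKO and 0.157 and 0.128 in control, without passing (0.25, limma adjusted p 0.121). Vsir (-0.27, limma adjusted p 0.0364), Pvr (-0.69, 0.00651), Lgals9 (-1.25, 0.000559) and Cd276 (-1.38, 0.000825) were called lower. On this scale 1.14% of all tested genes were called higher and 81.3% lower, so that 4 of 10 called lower is below the share over all genes.

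**Figure D2:**
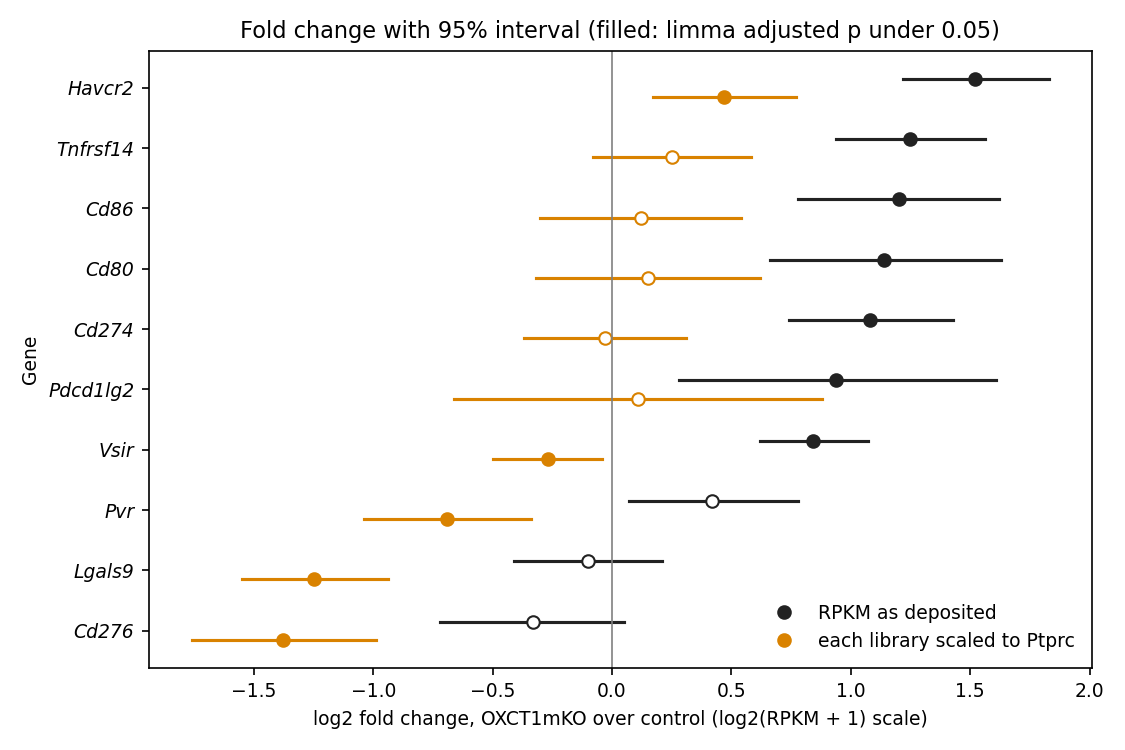
Log2 fold change of OXCT1mKO over control with its 95% interval for each of the 10 genes, from the deposited RPKM (black) and after scaling each library to the same Ptprc level (orange), with filled points at a limma adjusted p under 0.05. Havcr2 is right of 0 on both scales, at 1.52 and 0.47, and Cd274 is at 1.08 in black and -0.03 in orange.

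Markers of several cell types that can carry these ligands were called higher too. Over all tested genes 16.4% were called higher and 16.4% lower. Of 12 macrophage markers, 5 rose and Lyz2 fell (median log2 fold change 0.83). Without control 1 limma called 11 of them higher, and without the filter 2. Their summed levels were 1670 and 1837 RPKM in OXCT1mKO and 2222 and 1630 RPKM in control, which overlap. Lyz2 was then left out, a choice made after seeing the data. The sums were 1661 and 1831 RPKM in OXCT1mKO and 1534 and 886 RPKM in control, which do not overlap. The largest terms of those sums, C1qa, C1qb and C1qc, each overlapped between the groups. All 7 monocyte markers rose, with sums of 676 and 577 RPKM in OXCT1mKO and 226 and 268 RPKM in control. Of 7 Kupffer cell markers 6 rose (382 and 229 RPKM in OXCT1mKO, 31.5 and 28.5 RPKM in control). Of 10 conventional dendritic cell markers 8 rose (190 and 203 RPKM in OXCT1mKO, 98.5 and 87.8 RPKM in control), among them Clec9a (log2 fold change 2.06) and Flt3 (2.22). Of 7 mature dendritic cell markers, whose cells are known for high CD80, CD86 and PD-L1, 3 rose (245 and 348 RPKM in OXCT1mKO, 122 and 181 RPKM in control), or 1 without the filter. In that list Ccr7 and Fscn1 lay above both controls without being called. Cacnb3 (-0.26) and Socs2 (-0.23) lay below both controls, also without being called. None of the markers in these lists was at 0 in any library. With each library scaled to Ptprc, 6 of 7 Kupffer, 5 of 7 monocyte and 4 of 10 conventional dendritic cell markers were called higher. Of macrophage markers 0 were called higher and 1 lower, and of mature dendritic cell markers 0 and 3. Over all tested genes 1.14% were called higher on that scale. The part of these cells in the rises among the 10 genes was not tested. The libraries were then scaled to the macrophage markers other than Lyz2, a choice made after seeing the data. Havcr2 was again the single one of the 10 genes called higher, and Lgals9 (-0.97) and Cd276 (-1.12) were called lower. Of Kupffer, monocyte and conventional dendritic cell markers 6, 4 and 4 were called higher there, against 235 of 12523 tested genes. Of macrophage markers 1 was called higher and 1 lower, and of mature dendritic cell markers 1 and 2.

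Markers of non-myeloid cells were also present, and their calls are set beside 16.4% each way over all tested genes. Of 8 endothelial markers 6 rose (1380 and 1240 RPKM summed in OXCT1mKO, 701 and 848 RPKM in control). Of 7 hepatoma and epithelial markers 3 fell (569 and 515 RPKM in OXCT1mKO, 739 and 999 RPKM in control), Afp and Gpc3 among them, and without control 1 limma called all 7 lower. Cd276, the gene with the lowest fold change of the 10, is lower in the same libraries as these, and their part in it was not tested.

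On the lymphocyte side of these contacts, 12 receptor genes expressed by T cells were all tested. Btla rose and Cd160 fell, 1 of 12 each way against 16.4% each way over all tested genes, and the median log2 fold change was -0.50. Without control 2 limma called 2 of the 12 lower, Ctla4 and Lag3, an inhibitory receptor of T cells (-1.83, adjusted p 0.025, and -1.03 with 0.211 in all 4 libraries). Btla, a receptor of HVEM that B cells and dendritic cells also carry, was 7.37 and 6.82 RPKM in OXCT1mKO and 1.10 and 3.53 RPKM in control (1.39, limma adjusted p 0.0458). Its fold change was 0.84 without control 1, and its call was lost with a pseudocount of 0.1 (limma adjusted p 0.059), without the filter (0.105) and without the variance trend (0.0507). Cd160, another receptor of HVEM, was 0.751 and 1.32 RPKM in OXCT1mKO and 2.82 and 2.28 RPKM in control (-0.81, limma adjusted p 0.0355), a call lost without control 1 (0.0976), control 2 (0.0508) or the filter (0.0763). Ctla4, the inhibitory receptor of CD80 and CD86, was 10.3 and 18.2 RPKM in OXCT1mKO, against 43.7 and 22.4 RPKM in control, without overlap (-1.13, limma adjusted p 0.0837, and -1.60 with 0.0387 without control 2). Cd96, a receptor of PVR, did not pass (-0.50). Pdcd1 and Cd28 are added for their ligands, a choice made after their values were seen. Pdcd1, the receptor PD-1, was 4.38 and 14.1 RPKM in OXCT1mKO and 12.3 and 6.96 RPKM in control (-0.19, limma adjusted p 0.797). Cd28 was 2.53 and 4.28 RPKM in OXCT1mKO and 4.27 and 5.03 RPKM in control (-0.39, limma adjusted p 0.229). Of 10 T cell markers 5 fell, with sums of 57.7 and 105 RPKM in OXCT1mKO and 269 and 177 RPKM in control. Without control 1 limma called 2 of them lower, and without the filter 1, and their part in the receptor values was not tested.

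Further ligands outside the 10 genes were read from 3 lists. The counts called in each are to be read beside the 16.4% called each way over all tested genes. Of 10 other B7, butyrophilin and nectin genes 5 passed the filter, and Icosl, Btnl9 and Nectin1 rose. Icosl, the ligand of the T cell costimulator ICOS, was 8.55 and 9.73 RPKM in OXCT1mKO, against 4.40 and 4.39 RPKM in control (log2 fold change 0.91, limma adjusted p 0.0127). Btnl9, a butyrophilin-like gene, was 17.6 and 19.1 RPKM in OXCT1mKO and 7.76 and 7.36 RPKM in control (1.18, limma adjusted p 0.0127). Nectin1, an adhesion molecule, was low (2.80 and 2.96 RPKM in OXCT1mKO, 1.41 and 1.08 RPKM in control), and Nectin2, like PVR a ligand of CD226, did not pass (0.03). Of 8 TNF family genes 6 were tested, and Cd40, the receptor through which T cells license antigen-presenting cells, and Tnfsf9, the ligand of 4-1BB, rose. Tnfsf9 (0.48, limma adjusted p 0.0323) was not called without control 1 (0.0661), control 2 (0.0578) or the filter (0.0598). Cd40 was 13.2 and 13.9 RPKM in OXCT1mKO and 6.62 and 7.07 RPKM in control (0.89, limma adjusted p 0.0127). Of 16 other inhibitory genes of myeloid cells 15 were tested, of which 4 rose and 3 fell, against 16.4% each way over all tested genes. Without control 2 limma called 7 of them higher, and without the filter 2 higher and 2 lower. Vsig4, a complement receptor of Kupffer cells that restrains T cells, rose to 43.0 and 24.4 RPKM in OXCT1mKO, against 3.64 and 2.92 RPKM in control. Fgl2, which encodes a secreted immunosuppressive protein, rose (47.2 and 48.7 RPKM in OXCT1mKO, 18.3 and 12.5 RPKM in control), while Lgals1, another galectin, fell to 196 and 207 RPKM in OXCT1mKO, against 345 and 454 RPKM in control. Hmgb1, an alarmin known to bind TIM-3, fell by 0.55 on the log2 scale.

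Genes listed for a part in the induction and stability of PD-L1, whether they promote or restrain it, were mostly higher. Of 15 tested, 10 rose and 2 fell, against 16.4% each way over all tested genes, with a median log2 fold change of 0.57. Without the filter limma called 6 higher and 0 lower. With each library scaled to Ptprc it called 0 higher and 13 lower, where 81.3% of all tested genes were called lower. Cmtm6, whose product protects PD-L1 from breakdown, was 37.3 and 36.9 RPKM in OXCT1mKO and 24.3 and 25.0 RPKM in control (0.57, limma adjusted p 0.0141). Irf2 (0.61) and Hif1a (0.62) rose by similar amounts. Myc and Ifng fell, and Ifng, the interferon gamma gene itself, was 2.79 and 5.13 RPKM in OXCT1mKO, against 26.2 and 11.3 RPKM in control (-1.93, limma adjusted p 0.0323). Without control 1 its fold change was -1.35 (limma adjusted p 0.0537), and neither Ifng (0.0797) nor Myc (0.0631) was called without the filter. Myc was also not called with equal sums, with globin (0.056) or without it (0.0565). T cell markers were lower in the same libraries, and their part in the Ifng values was not tested. Myc and Ifng were named after their values were seen. Over the 6 lists 21 of 57 tested genes rose and 6 fell, against 16.4% each way over all tested genes. Apart from Vsig4, also called without OXCT1mKO 2, these calls rest on both OXCT1mKO libraries. With each library scaled to Ptprc 1 gene of the 6 lists was called higher and 38 lower, which is 1.75% and 66.7% of them against 1.14% and 81.3% of all tested genes.

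**Figure D3:**
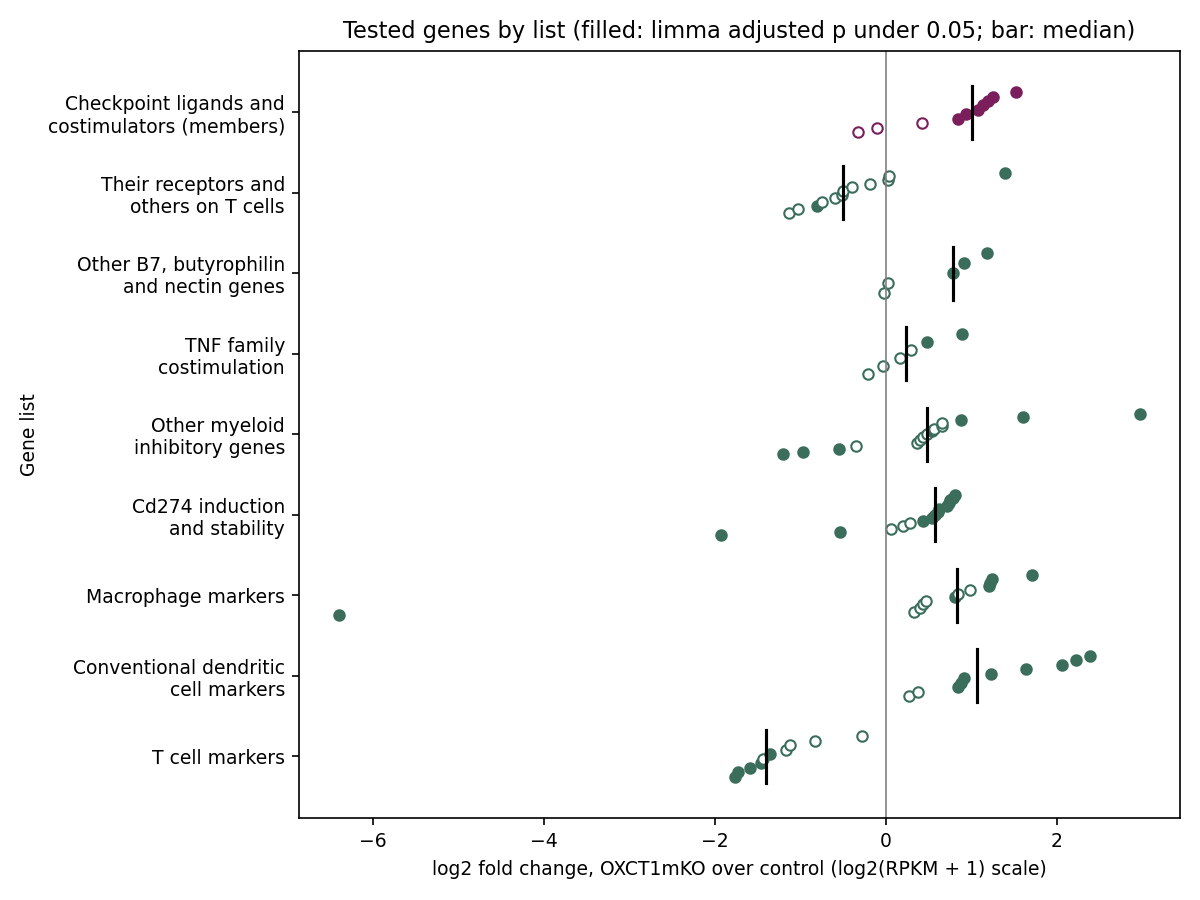
Log2 fold change of OXCT1mKO over control for each tested gene, by list, with filled points at a limma adjusted p under 0.05 and a bar at the median. The 10 checkpoint ligands and costimulators have a median of 1.01, the receptors on T cells -0.50 and the T cell markers -1.40, and the isolated point at -6.39 is Lyz2.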

How the data were processed

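Polyadenylated RNA of sorted tumour-associated macrophages was measured in 4 libraries, grouped by title and genotype label. A protocol in the labels names an Agilent microarray, whereas the series type and the deposited RPKM point to RNA sequencing, and the values were treated as such. The authors deposited 1 table of RPKM values with 1 column per library. STAR 2.10 and R 4.0.5 are named, without roles, and build mm10, per the submitters' processing notes. For the counter, its strand setting, the annotation and the gene lengths, nothing is given in the sources used here.

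Read depth was estimated from 6082 genes with 1 GENCODE M21 transcript: low RPKM values multiplied by length peak at the value of 1 read. It depends on those lengths, so reads behind a gene are approximate and no counting interval is given. The 4 estimates are in the report.

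Values were transformed to log2(RPKM + 1), genes with a mean of at least 1 RPKM were tested (12523), and limma 3.58.1 (R 4.3.3) compared the groups with a variance trend, two-sided, with Benjamini-Hochberg adjustment over all of them and a threshold of 0.05. This scale understates fold changes of low genes. An exact permutation test of 2 against 2 cannot go below 0.333. The labels do not say that libraries came from separate animals, so the spread behind the p-values is that of these samples and may be technical. The fit was tested on simulated data.

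The 10 genes, the pathway and marker lists and the naming rule were chosen with earlier results of these data known. The rule named the 10 genes, Oxct1, Ptprc and the neighbours of Cd274. It also named up to 4 genes with the smallest p in each pathway list and up to 2 in each marker list. Other genes, Lag3, C1qa, C1qb, C1qc, Ccr7, Fscn1, Cacnb3 and Socs2 among them, were named after their values were seen. A gene that the rule named and a promoter pattern are not reported here. Marker lists of natural killer (2 rose and 2 fell of 6), B (0 called of 6 by limma, 0 at an unadjusted p under 0.05), neutrophil (1 fell of 6), hepatocyte (3 rose and 1 fell of 8), stellate (2 fell of 6) and erythroid cells (0 called of 5 by limma, 0 at an unadjusted p under 0.05) were also read. Calls in these lists, to be read beside 16.4% each way over all tested genes, changed when a control was left out. B cell and neutrophil markers were called lower without control 1 and mostly higher without control 2. Erythroid markers were called lower without either control. Natural killer and hepatocyte markers were called in both directions without either control, and stellate markers without control 1. Alternatives covered the pseudocount, the filter, 5 scalings, the variance trend, a replicate block and leaving out each library. No protein sequences were used here.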

Additional observations from a re-analysis of the deposited data

How the results depend on the processing

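The 7 rises kept their direction in every alternative fitted, with 2 exceptions: scaled to Ptprc, Cd274 (-0.03) and Vsir (-0.27) turned, and scaled to macrophage markers Vsir did (-0.00079). Pvr turned on both scales (-0.69 and -0.42), and Lgals9 with equal RPKM sums (0.06), while it ran between -0.22 and 0.02 with a library left out. In both of these scalings the median of all genes itself moved, by -0.98 and -0.73, and with equal sums it moved by 0.14. Scaled to Ptprc, 143 genes of the table were called higher and 10181 lower. Among them were 1 and 4 of the 10 genes and 1 and 38 of the pathway genes. Scaled to macrophage markers, these counts were 235 and 7176, 1 and 2, and 3 and 23. Without a filter, which adds genes to the adjustment, 1191 genes were called higher and 1149 lower, of them 12 and 2 in the pathway lists, and with equal sums 1104 were called lower and 2878 higher. With a library left out, between 0 and 2362 genes were called higher and between 1 and 2056 lower, for the 10 genes between 0 and 8 higher, and for the pathway genes between 0 and 23 higher and between 0 and 7 lower. The low ends came without OXCT1mKO 1, where the lone OXCT1mKO library is taken to vary like the controls, and 3466 genes had an unadjusted p under 0.05. The replicate numbers are shared by the groups, but 2 pairs cannot show whether they pair the samples (correlation of deviations 0.055 across genes). With the replicate block, 1871 genes were called higher and 1735 lower, the same 7 of 10 among them, and Oxct1 had a limma adjusted p of 0.0577. Depth limits Pdcd1lg2 most, with about 51 to 183 reads per library. The scalings to macrophage markers and to sums without globin were chosen after seeing the data.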
